A study of Mus musculus with 20 samples.

Results

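The 10 genes described here belong to the steps that split sugars at the brush border, carry them across cell membranes and phosphorylate them. Mgam and Sis encode brush border disaccharidases, and Mgam2-ps is their relative, whose enzyme activity was not measured. Slc5a1, Slc2a1, Slc2a2 and Slc2a5 encode sugar transporters, and Hk1, Hk2 and Hkdc1 encode hexokinases. The 10 genes were taken from the count table by the Ensembl gene identifier that GENCODE assigns to each symbol. All 10 were among the 26619 genes of the count table, and 8 of them were among the 17893 genes that passed a filter on low counts and could be tested. Sis and Slc2a2 did not pass the filter.

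RNA from the distal colon of 20 C57BL/6 mice was sequenced, with 5 mice on each of 4 diets. All mice ate the Total Western Diet (TWD), a diet formulated after the usual nutrient intake of Americans, for 6 weeks after weaning at 3 to 4 weeks of age. They then ate the TWD with 0, 2, 5 or 10% resistant potato starch (RPS), which the sample labels call raw potato starch, for a further 3 weeks. The question for these genes was whether the RPS level changed their expression at the end of the colon, a place that little digestible sugar reaches.

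In the small bowel, maltase-glucoamylase (Mgam) and sucrase-isomaltase (Sis) stand on the brush border and split the short products of starch digestion and sucrose into glucose and fructose. The sodium-coupled carrier SGLT1 (Slc5a1) takes glucose up from the lumen, GLUT5 (Slc2a5) takes up fructose, and GLUT2 (Slc2a2) passes sugars to the blood. GLUT1 (Slc2a1) brings glucose from the blood into many cell types, and hexokinases phosphorylate glucose so that it stays in the cell. Starch that escapes the small bowel is fermented by colon bacteria, and colonocytes take most of their energy from the butyrate formed.

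Mgam2-ps (ENSMUSG00000102802, chr6:40755628-40845098, plus strand) begins 9570 bases after the end of Mgam (ENSMUSG00000068587, chr6:40605765-40746057, plus strand). Its symbol ends in the suffix of a pseudogene, but the GENCODE vM39 annotation of GRCm39 types it as protein coding, with an open reading frame of 2379 codons. Sis (ENSMUSG00000027790) is at chr3:72795890-72875196 on the minus strand. Family members of this kind hold a catalytic motif of 6 codons, of which the third is, in Mgam and Sis, that of the catalytic aspartate. The motif is shown for the first and second copy in each coding sequence. Mgam2-ps, the member that the main test called at 10% RPS, is a neighbour and relative of Mgam. Capitals mark the motif, each sequence is 5′ to 3′ on the coding strand of the GRCm39 transcripts, and each span includes the intron that cuts the motif.
Mgam copy 1, chr6:40639602-40640487: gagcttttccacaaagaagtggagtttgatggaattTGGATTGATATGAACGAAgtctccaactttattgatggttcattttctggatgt
Mgam2-ps copy 1, chr6:40790442-40791323: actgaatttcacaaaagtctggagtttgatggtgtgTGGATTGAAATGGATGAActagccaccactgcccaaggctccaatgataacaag
Sis copy 1, chr3:72853946-72854795: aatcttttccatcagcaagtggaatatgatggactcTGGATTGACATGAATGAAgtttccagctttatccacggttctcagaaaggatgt
Mgam copy 2, chr6:40666395-40666946: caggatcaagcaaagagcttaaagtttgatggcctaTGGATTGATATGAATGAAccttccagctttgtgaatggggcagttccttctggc
Mgam2-ps copy 2, chr6:40819972-40821671: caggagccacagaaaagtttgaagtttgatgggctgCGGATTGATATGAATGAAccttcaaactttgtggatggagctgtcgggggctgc
Sis copy 2, chr3:72820563-72821949: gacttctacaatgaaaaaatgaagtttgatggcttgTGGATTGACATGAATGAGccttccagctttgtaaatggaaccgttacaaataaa

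Counted from 1 at the first capital base, copy 1 of Mgam2-ps differed from Mgam by T9A, A13G and C15T, and copy 2 by T1C. In copy 1 of Mgam2-ps, T9A makes the third codon GAA, for glutamate in place of aspartate. In copy 2, T1C makes the first codon CGG, for arginine in place of tryptophan. Sis differed from Mgam by T9C and C15T in copy 1 and by T9C and A18G in copy 2. The longest coding sequence of Mgam held 4 such stretches, and those of Mgam2-ps and Sis held 2 each. The search accepted glutamate at the third codon and arginine at the first. The count for Mgam2-ps therefore does not show that its motifs are intact. Over the aligned coding sequences, Mgam and Mgam2-ps shared 66.2% of their bases. Of all words of 50 bases, the read length, in the Mgam2-ps transcripts, 0.336% also occurred in Mgam, so exact reads of the neighbours can nearly always be told apart.

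The hexokinase genes also include neighbours. Hk1 (ENSMUSG00000037012, chr10:62104621-62215687, minus strand) lies 3228 bases from Hkdc1 (ENSMUSG00000020080, chr10:62218916-62258270, minus strand), while Hk2 (ENSMUSG00000000628) is at chr6:82699740-82751469 on the minus strand. The second copy of the hexokinase signature, 8 codons in capitals, is shown for each because it lets the relatives be compared.
Hk1, chr10:62120058-62120141: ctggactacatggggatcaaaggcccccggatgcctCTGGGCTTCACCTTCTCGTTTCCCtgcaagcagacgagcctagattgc
Hk2, chr6:82711829-82711912: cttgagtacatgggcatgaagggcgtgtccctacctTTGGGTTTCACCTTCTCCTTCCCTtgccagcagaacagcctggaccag
Hkdc1, chr10:62234364-62234447: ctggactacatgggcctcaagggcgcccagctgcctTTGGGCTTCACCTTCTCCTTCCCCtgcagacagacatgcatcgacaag

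The coding sequences of Hk1, Hk2 and Hkdc1 were 70.7 to 71.6% identical between pairs, and no word of 50 bases in Hk2 or Hkdc1 occurred in another gene. Hk1 shared 3.73% of its words with the antisense gene Hk1os, and Slc2a1 (ENSMUSG00000028645, chr4:118965908-118996365, plus strand) shared 3.06% with the antisense gene Gm12868. The library kit kept strand, but the strand setting used for counting is not given in the sources used here. A small share of the Hk1 and Slc2a1 counts is therefore uncertain.

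Total counts per mouse, in megacounts (M), were 31.3 to 35 M at 0% RPS, 24.5 to 31.1 M at 2%, 22.3 to 30.4 M at 5% and 18.4 to 26.6 M at 10%. Depth and diet thus moved together, and the 0 and 10% groups did not overlap in depth. The sample labels disagree for 3 mice, whose description gives one RPS level and whose treatment field gives another. Mouse RS10_717 is 5% by the description and 2% by the treatment field, RS10_725 is 10% and 5%, and RS10_748 is 2% and 10%. The description was used throughout. Some libraries held transcripts of other organs. Summed pancreas acinar markers reached 5305 CPM (counts per megacount of the scaled library) in RS10_721 and 472 CPM in RS10_784 but were at most 13.8 CPM in the other 18 mice. The small bowel gene Apoa4 was at 5.9 CPM in RS10_715 and 3.16 CPM in RS10_725, against at most 1.3 CPM elsewhere. Other small bowel markers did not share this order. Apoa1 was highest in RS10_703 (9.71 CPM) and RS10_727 (3.75 CPM). The sum of 7 such markers was highest in RS10_721 (48.3 CPM) and RS10_784 (45.2 CPM), against 43.3 CPM in RS10_715 and 42.1 CPM in RS10_725. The 5 epithelial markers, Epcam among them, summed to at least 10139 CPM in every mouse, and squamous markers to at most 15.7 CPM. These sums show epithelium in every library but not its place along the bowel.

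Measured per kilobase of exon, which allows genes to be compared, Slc5a1 had the highest level of the 10 genes. Its mean was 42.7 ± 5.62 CPM per kilobase (SD, n = 20 mice), and it was above Hk1 in 18 of 20 mice. Hk1 followed at 35.1 ± 3.77, Slc2a1 at 30.8 ± 4.3 and Hk2 at 26.6 ± 10 CPM per kilobase. These 4 genes lay within overlapping ranges, and when the longest transcript was taken as the length in place of the merged exons, Hk1 moved to the first place with 69.6 CPM per kilobase.

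Mgam came next at 12.9 ± 2.48 CPM per kilobase and stood above Mgam2-ps, at 7.89 ± 1.87, in 19 of 20 mice. Slc2a5 was at 1.11 ± 0.666 and Hkdc1 at 0.4 ± 0.36 CPM per kilobase, and Slc2a5 was the higher in 18 of 20 mice. Sis, with a mean of 0.0227 CPM per kilobase, and Slc2a2, with 0.0157, were the lowest, and their order was not stable between mice. The distal colon libraries thus held Mgam and Slc5a1 transcripts but almost none of Sis and Slc2a2.

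**Figure D1:**
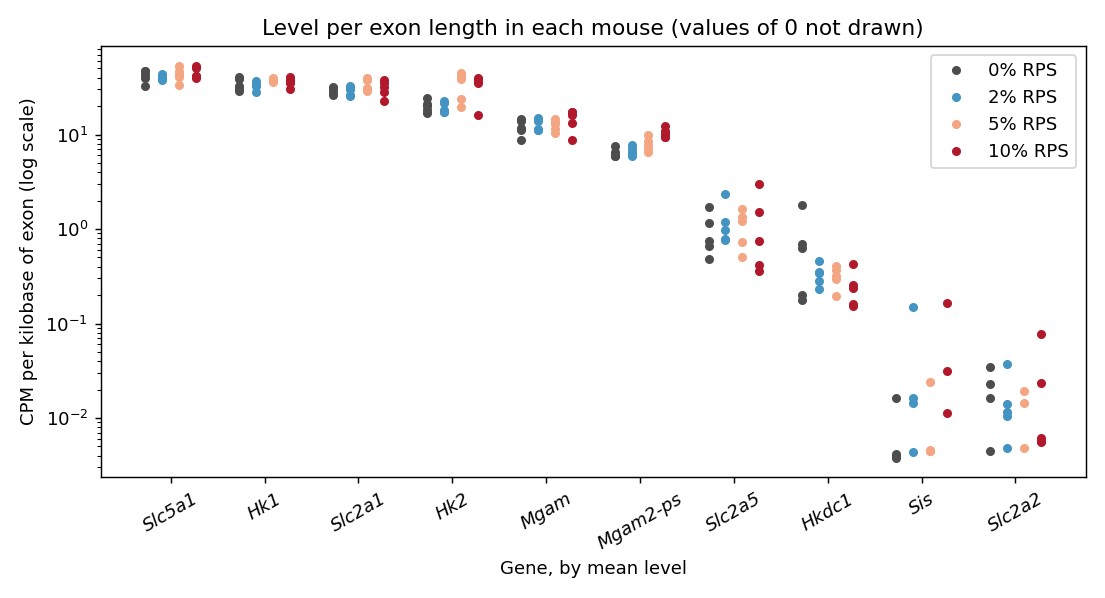
Level of each of the 10 genes in CPM per kilobase of merged exon (log scale), with genes ordered by their mean and 1 point per mouse in the colour of its diet. Values of 0 are not drawn, which leaves out 5 mice for Sis and 3 for Slc2a2. The 4 leading genes overlap, and Sis and Slc2a2 lie lowest.

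Sis was counted in 15 of 20 mice, in most of them with 1 to 6 reads. It had 30 reads (1.11 CPM) in RS10_715 of the 2% group and 32 reads (1.22 CPM) in RS10_725 of the 10% group. No other mouse exceeded 0.233 CPM. These were also the mice with the highest Apoa4, although Apoa1 was highest in RS10_703 (9.71 CPM), which had no Sis read. RS10_725 had the highest value of lactase (Lct), another small bowel disaccharidase, at 1.56 CPM against 0.108 to 0.751 CPM in the other 19. Slc2a2 (ENSMUSG00000027690, chr3:28752051-28785508, plus strand) was likewise highest in RS10_725, with 14 reads (0.532 CPM), and had at most 8 reads elsewhere. The part of small bowel RNA in these values was not tested. A count of 3 reads corresponds to 0.085 to 0.163 CPM in these libraries, and 15 of 20 mice had no more than that for each of the 2 genes. No fold change is given for them.

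In the main test, Mgam2-ps was the member that rose with RPS. Its level in the 0% mice was 47.4, 49.4, 61.5, 52.8 and 47.5 CPM, and in the 10% mice 99.3, 75.7, 81.8, 75.3 and 87.9 CPM. Every 10% mouse was above every 0% mouse. The 2% mice, at 47.9, 61.8, 58.8, 51.5 and 52.3 CPM, lay within or just above the range of the controls. The 5% mice, at 57.5, 69.7, 61.9, 79.8 and 52.5 CPM, spanned the gap between the end groups. By the treatment field, RS10_725 (99.3 CPM) is a 5% mouse, RS10_717 (57.5 CPM) a 2% mouse and RS10_748 (52.3 CPM) a 10% mouse. The libraries left out below for other tissues' transcripts were RS10_715 (58.8 CPM), RS10_721 (79.8 CPM), RS10_725 and RS10_784 (87.9 CPM).

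The fold change of Mgam2-ps at 10% RPS was 1.62 (log2 0.70 ± 0.11, SE), with an adjusted p of 0.00929 in the quasi-likelihood test of edgeR. It was the only 1 of the 8 tested members called, where a call needs an adjusted p of at most 0.05 and a fold of at least 1.5. Over all 17893 genes, 7 were called, or 0.0391%. Of all tested genes, 2.28% had the 5 mice at 10% on one side of the 5 mice at 0%, and Mgam2-ps was the 1 member that did. At 5% RPS the log2 change was 0.31 ± 0.11 (adjusted p = 0.369) and at 2% it was 0.07 ± 0.11 (adjusted p = 1). The linear trend over RPS percent was 0.72 ± 0.10 on the log2 scale per 10% RPS (adjusted p = 0.00067), and Mgam2-ps was again the only member to pass, against 2.1% of all genes.

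The call at 10% RPS held when any single mouse was left out, with adjusted p from 0.00411 to 0.0396, and after all libraries were thinned to the smallest total (log2 0.72, adjusted p = 0.00592). It was lost, with a log2 change of 0.64 and an adjusted p of 0.0728, without the 3 mice with disagreeing labels, and with a log2 change of 0.59 and an adjusted p of 0.15 without the 4 libraries with other tissues' transcripts. The trend passed in both cases (adjusted p = 0.0133 and 0.03). With the treatment field as the diet, neither the change at 10% RPS (log2 0.53, adjusted p = 0.374) nor the trend (adjusted p = 0.168) passed. In each of these settings that lost the call, edgeR called 0 of all genes at 10% RPS. The trend passed for 56 of all genes without the 3 mice, 7 without the 4 libraries and 0 with the treatment field.

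Mgam, the neighbour, did not pass the test at any RPS level. Its mean was 145 ± 29.1 CPM at 0% RPS (SD, n = 5), 152 ± 21.1 at 2%, 152 ± 19.6 at 5% and 175 ± 44.2 at 10%, and the range at 10%, 106 to 210 CPM, enclosed most of the range of the controls, 105 to 178 CPM. The log2 change at 10% RPS was 0.27 ± 0.17 (adjusted p = 0.452). The ratio of Mgam2-ps to Mgam was 0.292 to 0.452 at 0% RPS and 0.359 to 0.714 at 10%. These ranges overlapped, and the difference in the log2 ratio of 0.45 had an two-sided exact permutation p of 0.0873 (adjusted p = 0.173 over 9 ratios). A difference between the neighbours was therefore not shown.

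Mgam2-ps moved beside markers of surface colonocytes, the mature absorptive cells at the mouth of the crypt. The 7 markers summed to 4283 to 6067 CPM at 0% RPS and to 6494 to 7603 CPM at 10%, with no overlap. One of them, the carbonic anhydrase gene Car4, was called at 10% RPS, as were 0.0391% of all genes. The trend passed for 5 of 7, against 2.1% of all genes. Car1 and Guca2a did not pass it. The 5 general epithelial markers overlapped, with 10139 to 13989 CPM at 0% and 11883 to 15211 CPM at 10%. In whole tissue, more cells of a type and more RNA per cell cannot be told apart.

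Set against the epithelial sum, Mgam2-ps was 0.56 higher on the log2 scale at 10% RPS, with an two-sided exact permutation p of 0.0079, the smallest that 5 against 5 mice can give, and an adjusted p of 0.0714. Set against the surface colonocyte sum, it was 0.14 higher (exact permutation p = 0.262, adjusted p = 0.295). These ratios were chosen after the values were seen, when Mgam2-ps was already known to be called at 10% RPS. Their p-values are therefore no independent test of its rise. The genes whose log2 CPM was most like that of Mgam2-ps over the 20 mice were the efflux pump gene Abcg2 (r = 0.94), 4732465J04Rik (r = 0.87) and Car4 (r = 0.86). These values describe shared variation among mice that also share diets and depths.

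**Figure D2:**
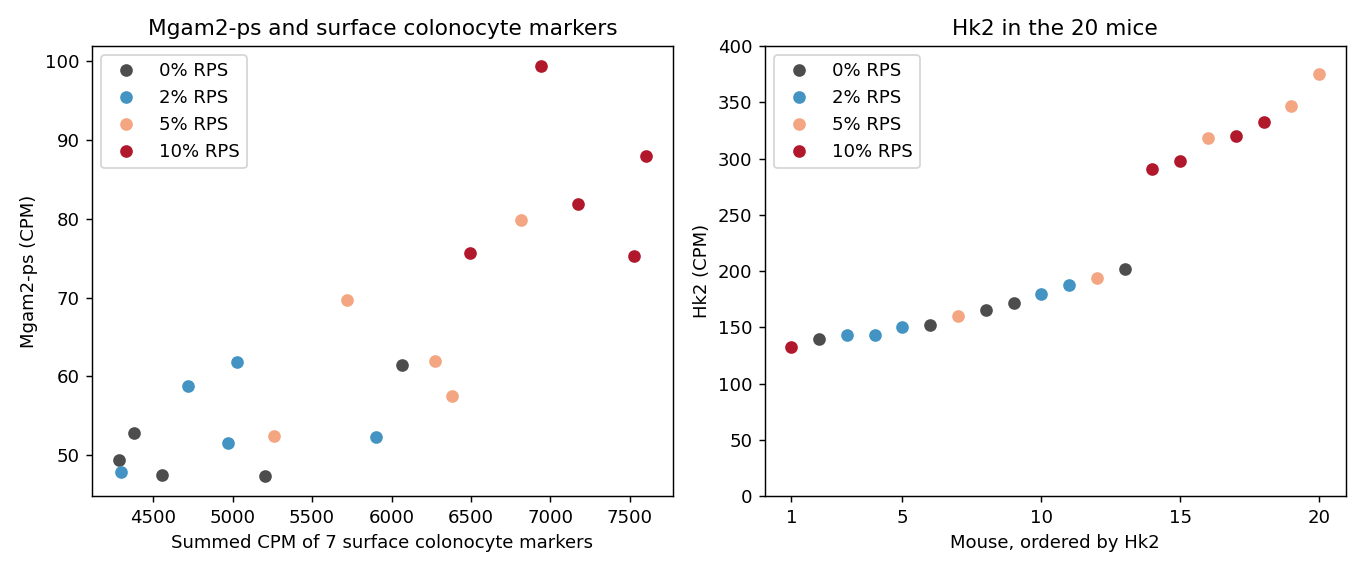
Left, Mgam2-ps in CPM against the summed CPM of 7 surface colonocyte markers, with 1 point per mouse. The 10% RPS mice lie above the 0% mice on both axes. Right, Hk2 in CPM with the 20 mice in ascending order. A gap of 89.1 CPM separates 13 mice at up to 202 CPM from 7 mice at 291 CPM or more.

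Hk2, the insulin- and hypoxia-responsive hexokinase of the outer mitochondrial membrane, had high values in some mice of the 5 and 10% groups. The 0% mice were at 152, 172, 165, 202 and 140 CPM and the 2% mice at 150, 143, 180, 143 and 188 CPM. The 5% mice were at 318, 194, 347, 375 and 160 CPM and the 10% mice at 320, 332, 298, 133 and 291 CPM. The values fell into separate ranges, 133 to 202 CPM in 13 mice and 291 to 375 CPM in 7 mice, and the next widest gap between mice was 27.8 CPM. By the description label, the 7 high mice comprised 3 of the 5% and 4 of the 10% group, and none of the 0 or 2% mice. By the treatment field, RS10_717 (318 CPM) of these 7 is a 2% mouse and RS10_725 (320 CPM) a 5% mouse. RS10_731, of the 10% group, had the lowest Hk2 value of all 20.

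Neither group mean was called. The log2 change was 0.73 ± 0.24 at 10% RPS (adjusted p = 0.16), 0.75 ± 0.24 at 5% (adjusted p = 0.357) and -0.04 ± 0.24 at 2% (adjusted p = 1), and the trend was 0.86 ± 0.25 per 10% RPS (adjusted p = 0.0723). DESeq2, with nearly the same change at 10% RPS (log2 0.74), called Hk2 with an adjusted p of 0.0387, where it called 1.21% of all genes. DESeq2 also gave Hk2 a trend (adjusted p = 0.00779), as it did 6.01% of all genes. At 5% RPS DESeq2 called none of the members and 0.156% of all genes. Without RS10_731 the edgeR trend of Hk2 passed (1.05 per 10% RPS, adjusted p = 0.0346). The edgeR trend did not pass with the treatment field as the diet (0.63, adjusted p = 0.371). It also did not pass without the 3 mice with disagreeing labels (0.82, adjusted p = 0.15). Without the 4 libraries with other tissues' transcripts it was 0.77 (adjusted p = 0.261).

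The ratio of Hk2 to Hk1 was 0.428 to 0.762 at 0% RPS and 0.503 to 1.05 at 10%, a log2 difference of 0.58 with an two-sided exact permutation p of 0.0397 that did not pass after adjustment (0.173). Against the epithelial sum the difference in Hk2 was 0.53 (exact permutation p = 0.135), and against the surface colonocyte sum it was 0.11 (exact permutation p = 0.746). The genes most like Hk2 over the 20 mice were 2010003K11Rik (r = 0.91), Tmcc3 (r = 0.85) and the caspase gene Casp8 (r = 0.84).

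Hk1, the hexokinase of most tissues, was the steadiest of the members. It lay between 247 and 354 CPM in all 20 mice, a spread of 1.43 times, with 299 ± 44.2 CPM at 0% RPS and 315 ± 33.5 CPM at 10%. The log2 change was 0.08 ± 0.09 at 10% RPS (adjusted p = 0.749), 0.14 ± 0.09 at 5% (adjusted p = 0.657) and -0.05 ± 0.09 at 2% (adjusted p = 1). The genes with the most similar pattern were Itpk1 (r = 0.88), Coro1c (r = 0.88) and Noc4l (r = 0.86).

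Hkdc1, a lesser-known hexokinase, had a mean of 3.6 ± 3.38 CPM at 0% RPS (SD, n = 5) and 1.26 ± 0.563 CPM at 10%, a difference that edgeR did not call. Its values at 0% RPS were 3.26, 0.918, 1.03, 9.22 and 3.59 CPM. At 2% they were 2.37, 1.19, 1.77, 1.82 and 1.46 CPM, at 5% 1.62, 0.994, 1.52, 1.87 and 2.1 CPM, and at 10% 1.22, 2.18, 1.32, 0.815 and 0.784 CPM. The control mice themselves spread from below most of the RPS mice to far above them, so that each RPS group overlapped the 0% group.

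The log2 change of Hkdc1 was -1.53 ± 0.49 at 10% RPS (adjusted p = 0.147), -1.16 ± 0.47 at 5% (adjusted p = 0.474) and -1.07 ± 0.47 at 2% (adjusted p = 1). DESeq2 called the change at 10% RPS (log2 -1.51, adjusted p = 0.0343). The size rested on mouse RS10_707, which held the 9.22 CPM. Without it the edgeR change was -0.81 at 10% RPS (adjusted p = 0.392), -0.45 at 5% and -0.36 at 2%. The ratio of Hkdc1 to its neighbour Hk1 had a log2 difference of -1.18 (two-sided exact permutation p = 0.127). The corresponding difference was -1.24 against the epithelial sum (exact permutation p = 0.127) and -1.66 against the surface colonocyte sum (exact permutation p = 0.0635). Its most similar genes were Naaladl1, which encodes a brush border peptidase (r = 0.83), Tmem35b (r = 0.83) and Alkbh6 (r = 0.82).

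None of the 3 tested sugar transporters passed the test at any RPS level. Slc5a1 (ENSMUSG00000011034, chr5:33261563-33320214, plus strand) was at 171 ± 24.4 CPM at 0% RPS, 165 ± 9.76 at 2%, 178 ± 29.2 at 5% and 186 ± 25.8 at 10% (SD, n = 5), and its log2 change at 10% RPS was 0.12 ± 0.11 (adjusted p = 0.657). Slc2a1 was at 139 ± 11.3, 136 ± 13.7, 158 ± 22.4 and 146 ± 27.7 CPM in the same order, with a log2 change of 0.07 ± 0.12 at 10% RPS (adjusted p = 0.817) that became -0.01 without mouse RS10_729. For both genes all groups overlapped, and for both a change of 1.5 times at 10% RPS lay outside 1.96 SE of the estimate, whose upper ends were 0.34 and 0.30 on the log2 scale.

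Slc2a5 (ENSMUSG00000028976, chr4:150196268-150228931, plus strand) varied 8.22-fold between mice, from 1.56 CPM in RS10_725 to 12.8 CPM in RS10_731, both of the 10% group. Its mean was 4.13 ± 2.14 CPM at 0% RPS, 5.2 ± 2.78 at 2%, 4.67 ± 1.97 at 5% and 5.17 ± 4.69 at 10%. The log2 change at 10% RPS, 0.33 ± 0.53 (adjusted p = 0.817), became -0.34 without RS10_731, so no direction can be given. The genes most like it were the clock gene Nr1d2 (r = 0.89), Gal3st1 (r = 0.89) and Clec14a (r = 0.89). Slc5a1 was most like Clec14a (r = 0.84), Cyp2d13 (r = 0.82) and Tmem218 (r = 0.81), Slc2a1 was most like Hpdl (r = 0.86), Actg1 (r = 0.84) and Foxn1 (r = 0.84), and Mgam was most like Kntc1 (r = 0.91) and Ctse (r = 0.88).

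**Figure D3:**
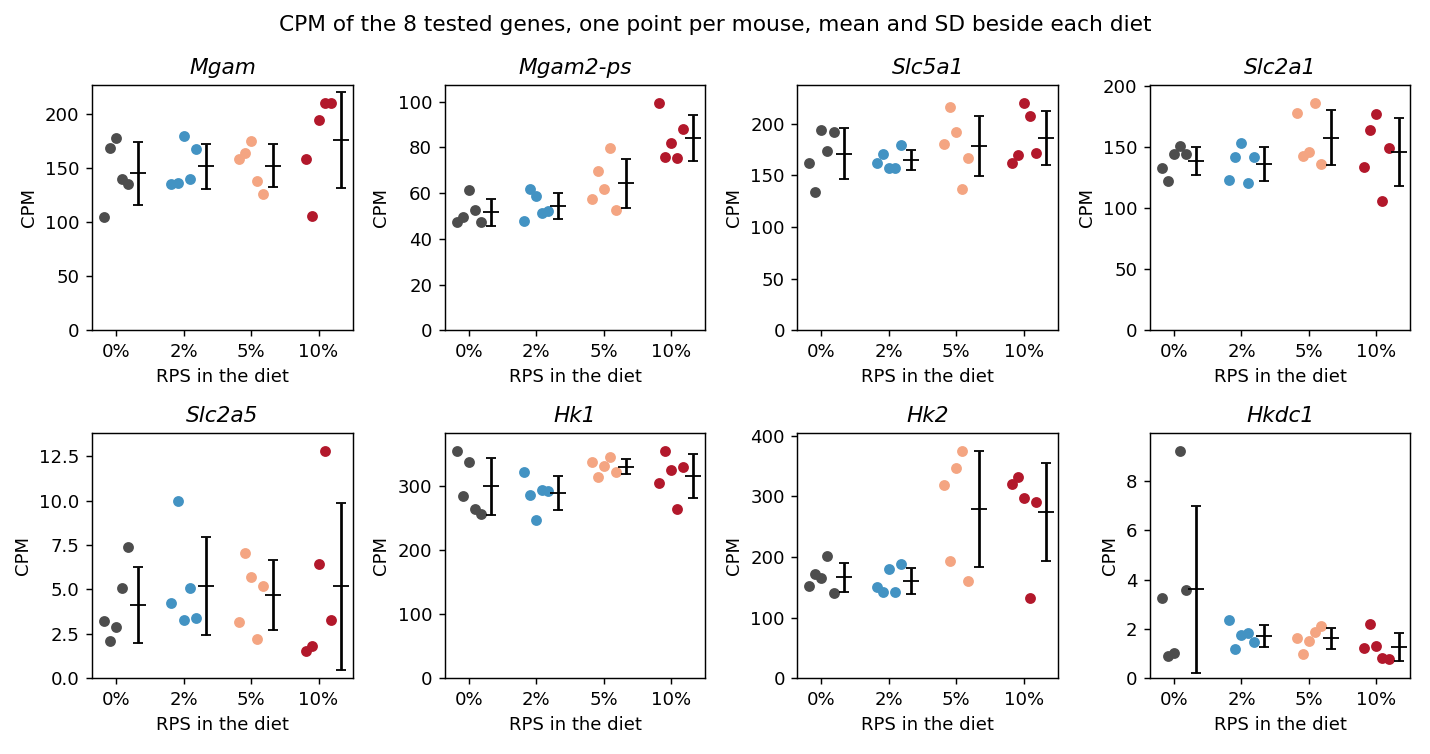
CPM of the 8 tested genes (axis from 0) by RPS percent in the diet, with 1 point per mouse and the mean and SD of the 5 mice beside each group. Mgam2-ps is higher in every 10% mouse than in every 0% mouse, Hk2 has a low and a high range at 5 and 10% RPS, and Hkdc1 is most spread out at 0%.

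Of the 8 tested members, 3 had an unadjusted p under 0.05 at 10% RPS, against 15.2% of all genes. They were Mgam2-ps, Hk2 and Hkdc1. The same 3 were under 0.05 at 5% RPS, against 9.19% of all genes, and 1, Hkdc1, at 2%, against 1.41%. No member was called at 5 or 2% RPS, where edgeR called 0% of all genes. No member had groups that did not overlap at 5 or 2% RPS, as 1.04 and 0.24% of all genes had. The 3 comparisons share the 0% mice and are not independent.

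**Figure D4:**
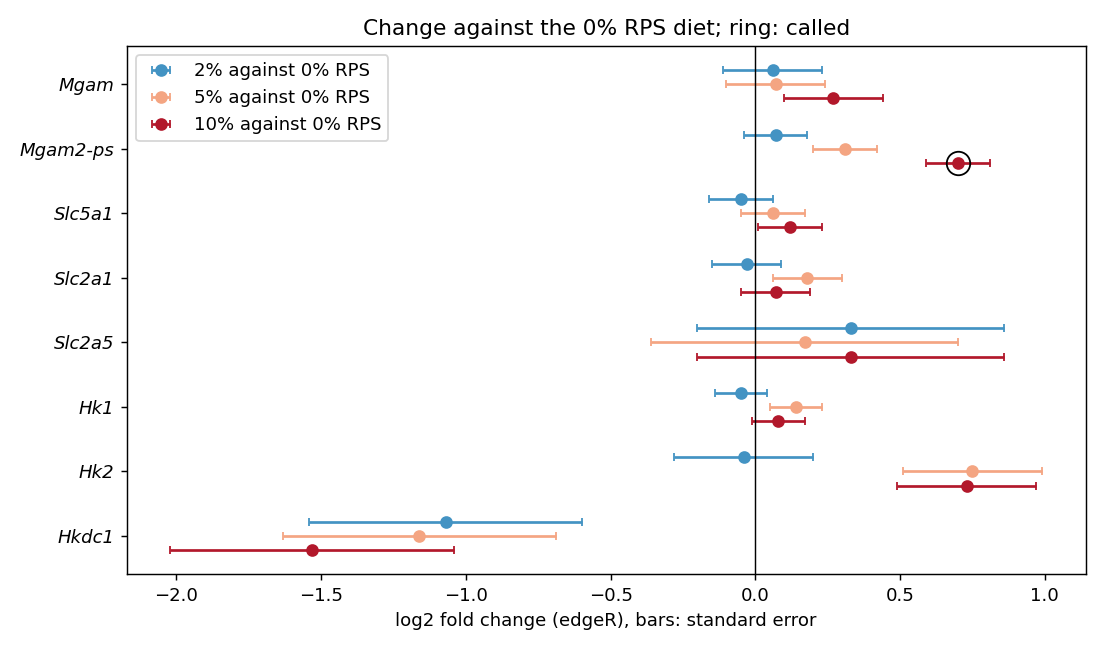
Log2 fold change of the 8 tested genes against the 0% RPS diet by the edgeR fit, with bars for the standard error and a ring around the single call, Mgam2-ps at 10% RPS. Hk2 lies near 0.75 at 5 and 10% RPS, and Hkdc1 lies below -1 at every RPS level.

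Correlations between members were computed for 35 relations, with those of Hk2 taken separately in the 13 low and the 7 high mice. The Hk2 relations entered the adjustment but are not described, since Hk2 itself sets those ranges. None passed by Pearson's r after adjustment over the 35. The lowest p was that of Mgam and Hkdc1, with r = -0.63 (permutation p = 0.00262, adjusted p = 0.0693) and rho = -0.75 (permutation p = 0.00029, adjusted p = 0.0101) over 20 mice. For this pair r was -0.62 without the 2 mice farthest from the median of Mgam. It was -0.58 (adjusted permutation p = 0.0758) after the diet means were removed. Slc5a1 and Slc2a5, the carriers for glucose and fructose, had r = 0.61 (permutation p = 0.00396, adjusted p = 0.0693) and rho = 0.54 (permutation p = 0.0153, adjusted p = 0.245), and r was 0.55 without the 2 farthest mice. After the diet means were removed, r was 0.70 (adjusted p = 0.0182). Mgam and Mgam2-ps had r = 0.41 (permutation p = 0.0765, adjusted p = 0.383) and rho = 0.47 (permutation p = 0.0386, adjusted p = 0.304), with r = 0.52 without the 2 farthest mice. With the diet means removed, their r was 0.27 (adjusted permutation p = 0.605).

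Mouse RS10_731 stood at the end of several members' ranges. It had the highest Slc2a5 and, with RS10_784, the highest Mgam (210 CPM), and the lowest Slc2a1 (106 CPM) and Hk2 (133 CPM) of all 20 mice.

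Genes of neighbouring steps were examined by list. None of the genes in the 7 lists was called by edgeR at any RPS level, so the counts given are of the linear trend, which 2.1% of all genes passed. Of 12 tested brush border hydrolases other than disaccharidases, 1 rose and 2 fell, with a median change of -0.07 per 10% RPS against -0.02 for all genes. The gene that rose was Mep1b, a meprin subunit (65.2 ± 9.19 CPM at 0% and 90 ± 18.8 CPM at 10% RPS, adjusted p = 0.0279). Naaladl1 was among those that fell (74.9 ± 15.9 to 48.6 ± 10.4 CPM, adjusted p = 0.0285).

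Of 14 other sugar kinase and glucose-6-phosphate genes, 1 fell and none rose, with a median of 0.02. It was Khk, the ketohexokinase that phosphorylates fructose (21.2 ± 4.18 CPM at 0% and 14.8 ± 3.51 CPM at 10% RPS, adjusted p = 0.0404). Of 5 gluconeogenesis genes, 1 rose and 1 fell, with a median of -0.35. Pcx, pyruvate carboxylase, rose (111 ± 3.77 to 138 ± 19.7 CPM, adjusted p = 0.0346), and Pck2, the mitochondrial phosphoenolpyruvate carboxykinase, fell (43.7 ± 5.27 to 34.6 ± 2.29 CPM, adjusted p = 0.0257).

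No gene of the other 4 lists passed the edgeR trend. Of 19 glycolysis genes, the lowest p-values were those of Pgk1 (415 ± 72.4 CPM at 0% and 520 ± 64.3 CPM at 10% RPS, adjusted p = 0.089) and Gapdh (89.8 ± 16 and 110 ± 13.2 CPM, adjusted p = 0.0801), the second of which has many processed copies in the genome and an uncertain count. The median of the list was 0.11 against -0.02. Of 11 other hexose transporters, with a median of -0.07, Slc5a9, a mannose and glucose carrier, was at 9.36 ± 2.29 and 16.2 ± 9.12 CPM (adjusted p = 0.175) and Slc2a4, the insulin-regulated GLUT4, at 38.6 ± 6.59 and 32.7 ± 4.87 CPM (adjusted p = 0.288).

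Of 9 other disaccharidases and glycosidases, with a median of -0.09, the lysosomal glucosidase gene Gaa was at 89.4 ± 4.43 and 78.8 ± 5.1 CPM (adjusted p = 0.106). Of 13 sugar-responsive and intestinal transcription genes, with a median of 0.12, the lowest p-values were those of Arrdc4, a target of the glucose-sensing factor ChREBP (114 ± 14.2 and 141 ± 17.9 CPM, adjusted p = 0.0642), and the intestinal factor Cdx2 (11.5 ± 7.13 and 31.3 ± 7.98 CPM, adjusted p = 0.122). DESeq2 gave a trend to both, and also to Pgk1 (adjusted p = 0.0366) and Gapdh (adjusted p = 0.0384). It called Cdx2 (adjusted p = 0.039) and Naaladl1 (adjusted p = 0.0057) at 10% RPS.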

How the data were processed

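The authors removed bases below their quality limit and reads with several ambiguous bases, mapped single-end reads of 50 bases to GRCm39 in CLC Genomics Workbench and deposited raw read counts per gene and mouse. The annotation release, the strand setting and the treatment of reads matching several genes are not given in the sources used here. Of 26619 gene identifiers, 26338 matched GENCODE vM39. Counts of 17893 genes kept by filterByExpr (minimum count 10) were fitted in one model over the 4 diets with edgeR 4.0.16 (R 4.3.3; TMM scaling, robust quasi-likelihood test), with Benjamini-Hochberg adjustment over all tested genes. The SE was the log2 change divided by the square root of F. DESeq2 1.42.0, another scaling, no filter, other labels and each mouse left out were alternatives. CPM used TMM-scaled totals, and log2 CPM a prior count of 2. Counts limit precision by depth, 18.4 to 35 megacounts per mouse, and cover counting error only.

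Groups came from the description label. Each number names 1 mouse, and no label pairs mice between diets. Chi-square per degree of freedom within diets was 9.43 to 61.4 over 40 pairs, so no pair of the same diet looked like 1 library, and pairs across diets were not compared. The members and lists were chosen with earlier results of these data known. Named were all members, the genes of each list that passed a test or, where none did, the 2 with the lowest trend p, and the 3 genes with the highest Pearson r to each tested member. Of the genes this rule names, 3 are not reported here. The 9 ratios, tested with exact permutations over 252 regroupings, were chosen after the values were seen, as were Apoa4, Apoa1, Lct and Car4. Correlation p-values used 100000 permutations. Sequences came from the GRCm39 transcripts of GENCODE.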

Additional observations from a re-analysis of the deposited data

Results flagged for a closer look

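Among 44 sets of 5 mice, for the 10 genes and the total count in each diet, 9 held a mouse far from the others by Dixon's test. For normally distributed values chance flags about 1 set in 20, or 2.2. That rate need not hold for the sets of Sis and Slc2a2, which had very few reads in most mice. The 9 and the 2.2 therefore cannot be compared directly. Sis was set apart in every diet, by RS10_708 at 0.121 CPM (next 0.0311), RS10_715 at 1.11 CPM (next 0.121), RS10_721 at 0.18 CPM (next 0.0338) and RS10_725 at 1.22 CPM (next 0.233). The first of these is 4 reads. Slc2a2 was set apart by RS10_715 at 0.258 CPM (next 0.0972) and RS10_725 at 0.532 CPM (next 0.163). In the 2% group RS10_712 had 10 CPM of Slc2a5 (next 5.08). In the 10% group RS10_731 had 133 CPM of Hk2 (next 291). The total count of RS10_724 was 22.3 megacounts, against 28.7 megacounts for the next of the 5% group.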

How the results depend on the processing

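No member was called at 2 or 5% RPS under any of the 30 alternatives run for each. The 1 member called at 10% RPS became 3 with DESeq2, which called 210 of all genes. It became 0 with the treatment label and 0 without the 3 mice with disagreeing labels. It was also 0 without the 4 libraries with other tissues' transcripts, a setting chosen after seeing the data. In each of these last 3 settings edgeR called 0 of all genes, against 7 in the main fit. The number of members called was 1 without any single mouse. The 1 member with a trend became 2 with DESeq2 and 0 with the treatment label, and 1 to 2 without single mice, Hkdc1 joining without RS10_727 (adjusted p = 0.0472) and Hk2 without RS10_731 (adjusted p = 0.0346). Of all genes, 375 passed the trend in the main fit, 985 with DESeq2 and 0 with the treatment label. Without RS10_727 the trend passed for 1148 genes and without RS10_731 for 139. The alternatives without the 3 or the 4 mice hold fewer animals, and the cause of the other differences was not tested. Removing the diet means gave 2 correlations that passed by Pearson's r in place of 0, of which 1 lies within the low range of Hk2 and is not described. Slc5a1 was the highest member per kilobase in 18 mice, and in 0 with longest transcripts. The sign reversed for Slc2a1 at 10% RPS (-0.01 without RS10_729, up to 0.17 without other single mice) and for Slc2a5 (-0.34 at 10% RPS and -0.42 for the trend without RS10_731, up to 0.65 and 0.46 without other single mice, and 0.78 and 0.67 at the highest over all alternatives). Depth limits Sis and Slc2a2, which had 3 or fewer reads in 15 of 20 mice each. No paired analysis was possible because each number names 1 mouse.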
